A study of Mus musculus with 18 samples.

Results

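The genes described here are 10 regulators of the mTOR kinase, namely *Rragd*, *Rraga*, *Rragc*, *Mtor*, *Rptor*, *Rictor*, *Rheb*, *Tsc1*, *Tsc2* and *Ddit4*. They were chosen by symbol from a table of gene counts with 50600 genes. *Rragd* was selected on its low level in thymic CD25 KO Tregs of these same libraries, so thymic values of the members are given as a description, with fold changes and standard errors but no p-values. All 10 were measured in each of 18 libraries of FACS-purified Tregs and all 10 passed the filter on low counts in both tissues.

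The study asked which genes depend on CD25, the alpha chain of the IL-2 receptor encoded by *Il2ra*, in developing and in peripheral Tregs. Thymic Tregs came at 3 to 4 weeks of age from 5 CD25 KO mice, which carried floxed *Il2ra* and YFP/Cre expressed from the *Foxp3* locus and had been “cured” of autoimmunity with WT splenocytes given at birth, and from 5 Foxp3/RFP reporter mice as WT. Splenic Tregs came from 4 mice with floxed *Il2ra*, a tamoxifen-inducible eGFP-Cre-ERT2 fusion expressed from *Foxp3* and the R26Y reporter, and from 4 CD25 WT reporter controls. The splenic mice received tamoxifen at 7 to 10 weeks of age and were analysed 10 to 14 days later. All mice were of the C57BL/6 strain according to the labels. The 2 thymic genotypes carried different *Foxp3* alleles and were separate lines, and the CD25 KO mice alone had received donor cells, so genotype, line and transfer cannot be told apart there. Tissue, age and mouse model also changed together between thymus and spleen, as did the date in the column names of the count table, which is the same for all libraries of a tissue.

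mTOR works in 2 complexes. mTORC1, with the scaffold Raptor (*Rptor*), promotes protein synthesis and growth and restrains lysosome formation, and mTORC2, with Rictor (*Rictor*), phosphorylates Akt. Amino acids bring mTORC1 to the lysosome through Rag GTPases, dimers of RagA or RagB (*Rraga*, *Rragb*) with RagC or RagD (*Rragc*, *Rragd*). There the small GTPase Rheb (*Rheb*) switches the kinase on, and the TSC complex (*Tsc1*, *Tsc2*) switches Rheb off. REDD1 (*Ddit4*) is a stress-induced protein that acts through TSC to lower mTORC1 activity. IL-2 is among the signals known to activate this pathway in T cells, and Tregs need Raptor for their suppressive function.

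The genotype was visible in *Il2ra* itself. Its level in CPM, that is, counts relative to the TMM-scaled library size, was 526 to 683 in thymic WT and 95.2 to 288 in thymic CD25 KO mice, with the highest KO values in mice 2 and 4 (288 and 236 CPM). In the spleen it was 481 to 534 CPM in WT and 166 to 208 CPM in CD25 KO mice. Counts of the whole gene include exons outside the floxed part. The Treg factor *Foxp3* was present in every group but lower in CD25 KO mice of both tissues, without overlap. Its thymic mean was 300 CPM ± 30.0 in CD25 KO mice, against 504 CPM ± 68.7 for the reporter mice (SD, n = 5). Its splenic mean was 225 CPM ± 13.5 in CD25 KO mice, against 326 CPM ± 9.52 for the controls (SD, n = 4). *Foxp3* was thus at 59.8% (thymus, adjusted p = 0.00101, edgeR) and 68.5% (spleen, adjusted p = 6.90e-06, edgeR) of WT. The thymic genotypes carried different *Foxp3* alleles, so allele and CD25 loss cannot be told apart for thymic *Foxp3*. Thymic libraries held 17239774 to 23993674 counts, and splenic libraries 25258341 to 32639570.

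*Rragd* and *Rragc* encode the alternative partners of RagA and RagB, and both lie on chromosome 4. Their promoters are shown because the genes are paralogs with unlike values in CD25 KO Tregs. Each window runs from 250 bases before to 50 bases after the RefSeq start (GRCm38.p6, plus strand). *Rragd* is at chr4:32982748-32983047 and *Rragc* at chr4:123917183-123917482. Capitals mark the G-rich word GGGTGGGG in *Rragd* and the E-box CACGTG, the core of the element bound by the MiT/TFE factors, in *Rragc*.
Rragd: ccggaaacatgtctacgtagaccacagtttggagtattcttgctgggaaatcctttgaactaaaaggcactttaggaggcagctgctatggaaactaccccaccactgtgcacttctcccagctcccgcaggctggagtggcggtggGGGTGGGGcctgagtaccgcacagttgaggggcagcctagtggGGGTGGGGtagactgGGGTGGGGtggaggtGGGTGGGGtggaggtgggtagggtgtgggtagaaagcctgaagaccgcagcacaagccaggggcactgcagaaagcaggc
Rragc: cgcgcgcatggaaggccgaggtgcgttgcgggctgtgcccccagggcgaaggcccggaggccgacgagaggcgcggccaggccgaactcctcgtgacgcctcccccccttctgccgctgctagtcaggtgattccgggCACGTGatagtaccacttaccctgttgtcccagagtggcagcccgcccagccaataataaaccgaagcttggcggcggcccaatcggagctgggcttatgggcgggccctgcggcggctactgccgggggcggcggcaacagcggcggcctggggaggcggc

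The *Rragd* window held GGGTGGGG 4 times, a word that was searched only after the sequence had been seen and that occurs on either strand in 9.99% of 32851 mouse promoters of this length. It held neither CACGTG, found in 7.15% of promoters, nor the STAT core TTCNNNGAA, found in 8.30%. CACGTG occurred once each in the windows of *Rragc* and *Rheb*, and TTCNNNGAA once each in those of *Rraga* and *Mtor*. These are letter matches only, and the words do not overlap one another in these windows.

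*Rragd* was the member with the lowest relative level in CD25 KO Tregs of both tissues. In the 5 thymic WT mice it measured 17.4, 19.02, 17.8, 19.5 and 14.4 CPM. In the 5 thymic CD25 KO mice it measured 2.94, 4.51, 3.02, 3.09 and 3.09 CPM, from 56 to 95 counts per library against 337 to 451 in WT. The highest KO mouse stood well below the lowest WT mouse, and the KO mean of 3.33 CPM ± 0.662 (SD, n = 5) compared with 17.6 CPM ± 1.98 (SD, n = 5). The log2 fold change was −2.40 (SE 0.135), or 19.01% of the WT level, and it was −2.54 without KO mice 2 and 4, which had the highest *Il2ra*. Since these are pools of sorted cells, fewer cells expressing *Rragd* and less *Rragd* RNA per cell cannot be told apart.

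Splenic *Rragd* was not used to choose the members and was tested. It measured 35.7, 26.5, 29.2 and 31.0 CPM in WT and 16.3, 21.7, 15.6 and 20.2 CPM in CD25 KO mice. Every KO value was below every WT value. *Rragd* fell to 59.8% of WT, a log2 fold change of −0.74 (SE 0.107, adjusted p = 0.000185, edgeR). Across the 4 groups the order of levels was thymic KO, thymic WT, splenic KO and splenic WT, and the middle groups overlapped (14.4 to 19.5 against 15.6 to 21.7 CPM). The KO effect was smaller in the spleen by 1.67 on the log2 scale (SE 0.182), a difference that contains the thymic contrast and is therefore only described.

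**Figure D1:**
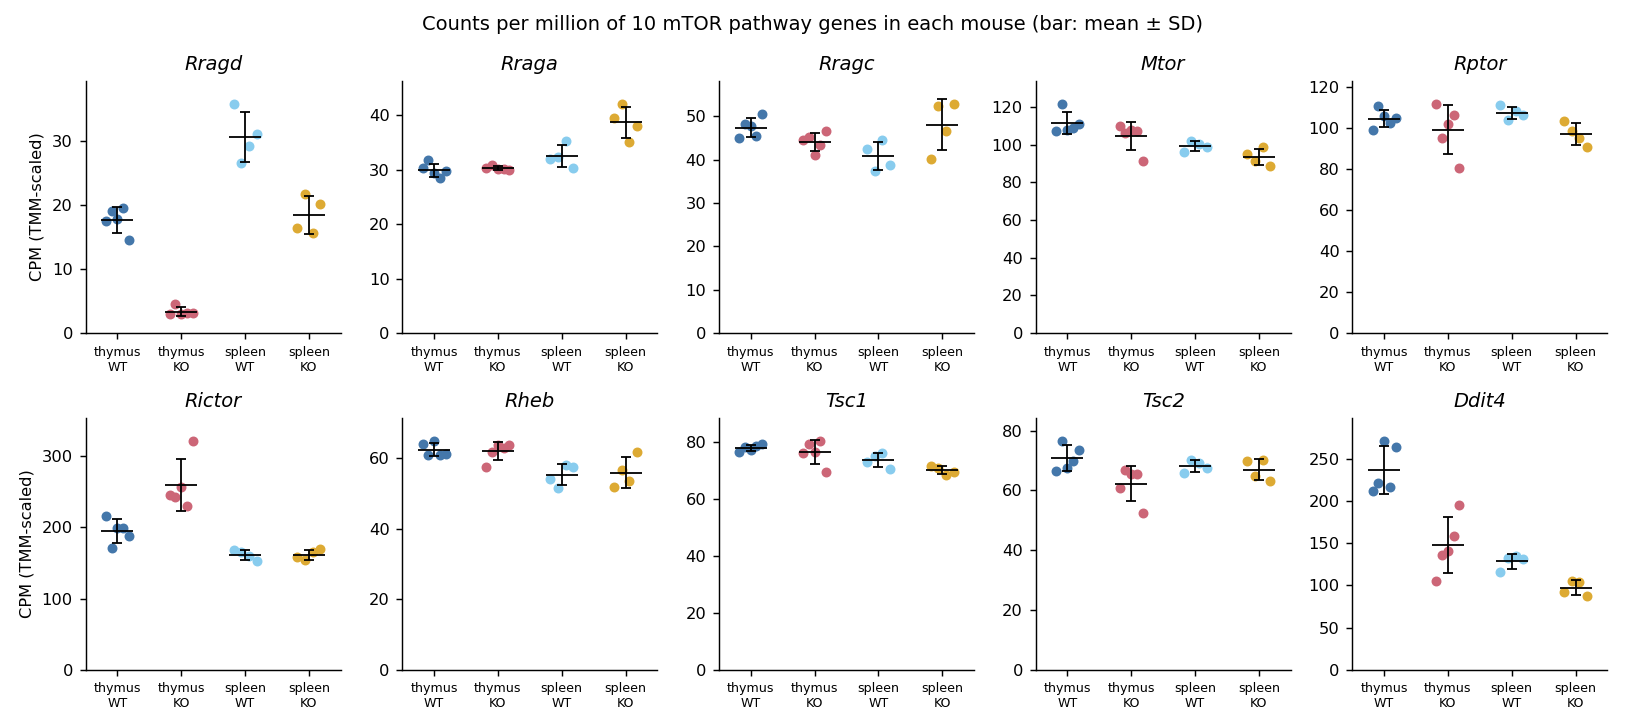
CPM after TMM scaling of the 10 genes in each mouse, by tissue and genotype, with the mean and SD of each group; each panel has its own axis from 0. *Rragd* in the thymic CD25 KO mice lies between 2.94 and 4.51 CPM, below every other library, while panels such as *Rheb* and *Tsc1* show groups at similar heights.

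No other Rag gene was called in either tissue. *Rraga*, which encodes RagA, measured 28.4 to 31.7 CPM in thymic WT and 30.0 to 30.9 CPM in thymic CD25 KO mice, a log2 fold change of 0.02 (SE 0.0507). In the spleen it measured 32.0, 32.3, 35.3 and 30.4 CPM in WT and 39.5, 42.1, 35.1 and 38.0 CPM in CD25 KO mice, so the groups overlapped by 1 mouse each. That difference of 0.24 (SE 0.0678) had an adjusted p of 0.0229 and missed the threshold of FDR < 0.01.

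*Rragc*, the paralog of *Rragd*, measured 45.1 to 50.4 CPM in thymic WT and 41.2 to 46.7 CPM in thymic CD25 KO mice (log2 fold change −0.09, SE 0.0525). Its splenic values were 42.4, 37.4, 44.7 and 38.8 CPM in WT and 40.2, 52.4, 46.7 and 52.9 CPM in CD25 KO mice. Of these KO mice, 3 were above all WT mice and mouse 1 was within the WT range. The splenic log2 fold change was 0.22 (SE 0.0806, adjusted p = 0.0718), and without KO mouse 1 it was 0.30 (adjusted p = 0.00907). Of the exonic bases of *Rragc*, 7.90% are shared with the opposite-strand gene *4930535I16Rik*. The strand setting of the counting is not given in the sources used here, so reads from there cannot be assigned.

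Levels per exonic length let the Rag genes be compared with one another. In thymic WT Tregs the mean CPM per kilobase of exon was 18.5 ± 0.745 for *Rraga*, 14.2 ± 0.654 for *Rragc*, 3.41 ± 0.382 for *Rragd* and 1.22 ± 0.320 for *Rragb*, the RagB gene (SD, n = 5). In thymic CD25 KO Tregs these levels were 18.7 ± 0.209, 13.2 ± 0.626, 0.644 ± 0.128 and 1.04 ± 0.267. *Rragd* thus went from the third to the last place of the 4 by mean, although its range and that of *Rragb* overlapped in the KO mice. Splenic WT levels were 20.1 ± 1.26, 12.2 ± 0.991, 5.91 ± 0.751 and 3.69 ± 0.247, and splenic KO levels were 23.9 ± 1.79, 14.4 ± 1.77, 3.57 ± 0.574 and 4.35 ± 0.557 (SD, n = 4). *Rragb* was called in neither tissue, with a log2 fold change of −0.23 (SE 0.216, adjusted p = 0.471) in the thymus and 0.23 (SE 0.108, adjusted p = 0.173) in the spleen.

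The part of the RagC and RagD transcripts contributed by *Rragd* was computed for each mouse from the same length-scaled levels. Thymic WT mice had 19.4% ± 2.28 and thymic CD25 KO mice 4.63% ± 0.813 (SD, n = 5). Splenic WT mice had 32.6% ± 2.53 and splenic CD25 KO mice 19.8% ± 1.54 (SD, n = 4), with ranges of 29.7% to 35.2% and 17.7% to 21.1%. Neither tissue showed an overlap between genotypes. These are shares of RNA, and protein was not measured.

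**Figure D2:**
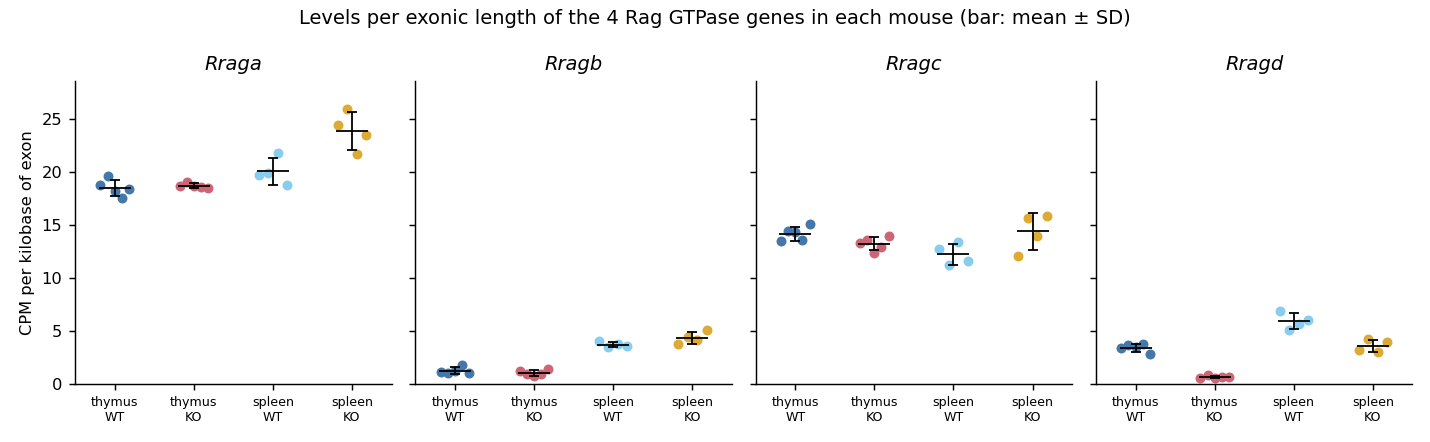
CPM per kilobase of exon for *Rraga*, *Rragb*, *Rragc* and *Rragd* in each mouse, by tissue and genotype, with the mean and SD of each group; the panels share the same axis from 0. The thymic WT mean of *Rragd* is 3.41 and its CD25 KO mean 0.644, whereas *Rragc* averages 14.2 and 13.2.

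Of the subunits that define the mTOR complexes, *Mtor* and *Rptor* were called in neither tissue. *Mtor*, the kinase shared by both complexes, had log2 fold changes of −0.09 in the thymus (SE 0.0607) and −0.10 in the spleen (SE 0.0521, adjusted p = 0.203, 95% interval −0.20 to −0.00039). *Rptor* had −0.07 in the thymus (SE 0.0792). In the spleen *Rptor* was 104 to 111 CPM in WT and 90.9 to 104 CPM in CD25 KO mice without overlap, and its log2 fold change of −0.16 (SE 0.0541) missed the threshold at an adjusted p of 0.0540.

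*Rictor*, the subunit of mTORC2, was the member that was higher in thymic CD25 KO Tregs. Its values were 216, 171, 199, 200 and 187 CPM in WT and 245, 242, 256, 229 and 322 CPM in CD25 KO mice. The groups did not overlap, and mouse 5 lay far above the other KO mice. The log2 fold change was 0.42 (SE 0.0911), and it was 0.25, no longer past the threshold, after correction for the trend of each library with transcript GC content. Leaving out single mice gave 0.33 to 0.46 and ended the call in 8 of 10 cases, the exceptions being the fits without KO mouse 4 or KO mouse 5, and the lowest value was that without KO mouse 5. In the spleen *Rictor* measured 153 to 168 CPM in WT and 154 to 170 CPM in CD25 KO mice, a log2 fold change of −0.01 (SE 0.0513, adjusted p = 0.886, 95% interval −0.12 to 0.086).

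The switch upstream of mTORC1 showed no called change. *Rheb*, the activating GTPase, was at 99.7% of WT in the thymus (SE 0.0512 on the log2 scale) and at 100.3% in the spleen (SE 0.0603, adjusted p = 0.976). *Tsc1* had log2 fold changes of −0.02 in the thymus (SE 0.0511) and −0.09 in the spleen (SE 0.0492, adjusted p = 0.257). *Tsc2*, which carries the GTPase-activating domain for Rheb, had −0.18 (SE 0.0729) and −0.04 (SE 0.0553, adjusted p = 0.679). Of the *Tsc2* exonic bases, 7.20% are shared with *Pkd1* on the opposite strand.

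*Ddit4*, which encodes the mTORC1 inhibitor REDD1, fell in both tissues. Thymic WT mice measured 212, 221, 272, 217 and 264 CPM, and thymic CD25 KO mice 105, 136, 141, 158 and 196 CPM. The genotypes did not overlap, and KO mouse 5 was nearest to WT. The log2 fold change was −0.68 (SE 0.137, 62.4% of WT), and −0.54 and no longer past the threshold with the GC correction. Leaving out single mice gave −0.80 to −0.58 and ended the call in 6 of 10 cases, those without WT mouse 2, 3 or 5 or without KO mouse 1, 2 or 3. Splenic *Ddit4* measured 115, 132, 135 and 132 CPM in WT and 92.5, 106, 104 and 87.3 CPM in CD25 KO mice, again without overlap. There it fell by 0.41 on the log2 scale (SE 0.0689, adjusted p = 0.000604), although in a fit of all 18 samples the adjusted p was 0.0483. The difference between the tissues was 0.28 (SE 0.173).

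Some genes that respond to cell isolation differed in the thymus as well. Of 8 handling and immediate early genes, 3 were called lower and none higher in thymic CD25 KO mice. The summed level of all 8 was 366 to 997 CPM in WT, a range that enclosed the 494 to 607 CPM of CD25 KO mice. In the spleen 1 of 6 tested was higher and none was lower. Of 18 genes of recirculating or effector Tregs, 9 were lower in thymic CD25 KO mice, while in the spleen 12 were higher and 1 was lower. Over all tested genes, 2.99% were called lower and 3.17% higher in the thymus, and 3.55% and 5.9% in the spleen. The part of either gene group in the *Ddit4* and *Rragd* values was not tested. Markers of B cells, myeloid cells, NK cells and erythroid cells summed to at most 42.2 CPM per list in any library, and immature or CD8 thymocyte markers to 172 CPM at most, in a thymic WT mouse. The sum of 4 NK cell markers was higher in splenic CD25 KO mice (10.8 to 16.1 against 4.67 to 7.90 CPM). It came from *Klrb1c*, which was called, and *Eomes*, which was not. The other markers, *Ncr1* and *Klra8*, had 0 counts in every splenic library.

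Counted together, 3 of 10 members were called in the thymus, or 2 of 9 without *Rragd*, where 6.16% of 16986 tested genes were called. Since *Rragd* was chosen on this contrast, nothing is read from the thymic count. *Rragd* and *Ddit4* were lower, against 2.99% of all genes called lower, and *Rictor* was higher, against 3.17%. Over all genes the thymic calls were 508 lower and 539 higher, and 440 lower and 808 higher with upper-quartile scaling. In the spleen 2 of 10 members were called, both lower, where 9.45% of 17463 tested genes were called, 3.55% lower and 5.9% higher. On the log2 scale the thymic member median was −0.08 beside −0.0022 over all tested genes, and the splenic one was −0.06 beside −0.0065. Uncalled members ranged from −0.18 to 0.02 in the thymus and from −0.16 to 0.24 in the spleen. The splenic *Rragd* call, on values not used for the choice, held under every alternative tried.

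**Figure D3:**
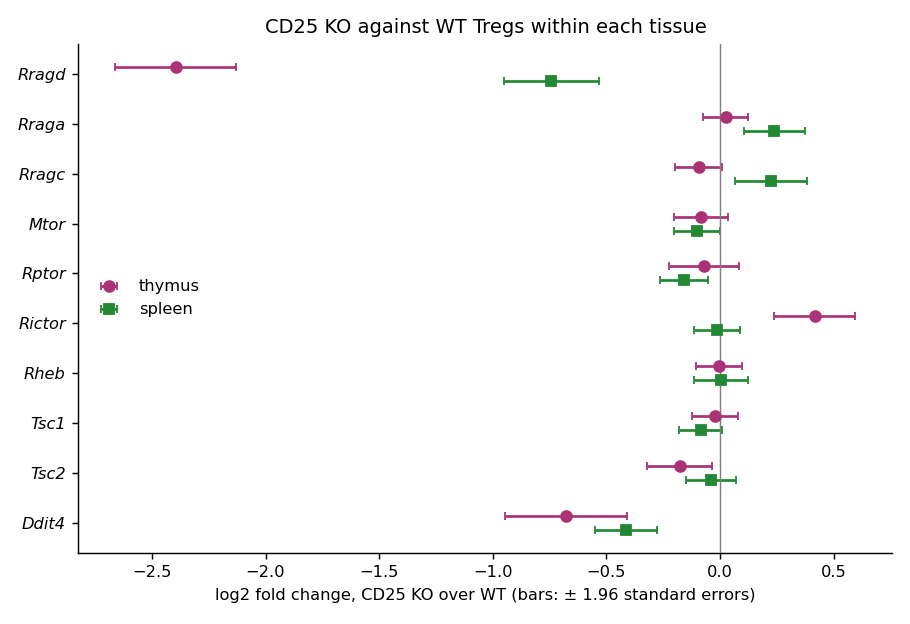
Log2 fold change of CD25 KO over WT for the 10 genes, thymus as circles and spleen as squares, with bars for the 95% interval from the standard error. *Rragd* lies at −2.40 (thymus) and at −0.74 (spleen), and 7 thymic and 8 splenic points were not called.

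The 5 genes with profiles most like that of *Rragd* over the 18 libraries, by Pearson's r of log2 CPM among 15063 genes, were *Socs1* (0.973), *Il2rb* (0.956), *Herpud1* (0.956), *Socs2* (0.954) and *Phb* (0.953). The points share tissue, genotype and library depth, so these coefficients describe the 4 group levels more than single mice. *Socs1* and *Socs2* encode suppressors of cytokine signaling, *Il2rb* the beta chain of the IL-2 receptor, *Herpud1* a protein of the endoplasmic reticulum and *Phb* prohibitin. Because they were picked for this likeness, their fold changes are a description without a test. *Socs1* had log2 fold changes of −0.92 (thymus, SE 0.0671) and −0.45 (spleen, SE 0.0646). *Socs2* had −3.20 (SE 0.429) and −0.98 (SE 0.0970), and was the gene of the 5 with a larger thymic value than *Rragd*. *Il2rb* had −0.79 (SE 0.118) and −0.19 (SE 0.0535).

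The surroundings of *Rragd* were examined because the thymic groups are separate mouse lines. *Rragd* spans 32983037 to 33022180 on the plus strand of chromosome 4 (GRCm38). *Rraga*, *Rragc* and *Mtor* lie on the same chromosome at 86575668 to 86577285, 123917446 to 123936997 and 148448611 to 148557683, and none of these was called in either tissue. Among the other genes starting within 5 Mb of *Rragd*, 2 of 32 tested (6.25%) were called in the thymus, near the 6.16% of all genes, and 8 of 33 (24.2%) in the spleen, beside 9.45% of all genes. The splenic share depended on the window, with 8 of 30 (26.7%) within 2 Mb and 8 of 83 (9.64%) within 10 Mb. In the thymus these windows had 2 of 29 (6.90%) and 3 of 79 (3.80%). Of the splenic calls, *Bach2it1* and *Bach2os* lie within *Bach2*, so the calls are not all separate loci.

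The nearest tested gene on the left was *Gm11942*, a processed pseudogene that starts at −18149 bases from the start of *Rragd*. It was at 54.9 to 67.7 CPM in thymic WT mice and at 0.136 to 0.847 CPM in thymic CD25 KO mice, from 3 to 17 counts per library. Splenic WT mice had 0.195 to 0.637 CPM and splenic CD25 KO mice 0.151 to 0.600 CPM, so the thymic WT line stood apart from all 3 other groups. The thymic log2 fold change was −6.97 (SE 0.226, adjusted p = 3.31e-09), and the splenic one −0.21 (SE 0.433, adjusted p = 0.792). In the thymus, mouse line and genotype cannot be told apart for *Gm11942* or for *Rragd*.

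Counts of *Gm11942* are uncertain, since its sequence is 97.4% identical over 345 bases to the ribosomal protein gene *Rplp1* and 97.7% identical to the pseudogene *Gm10073*. *Rplp1* was at 454 CPM ± 43.8 in thymic WT and 552 CPM ± 28.8 in thymic CD25 KO mice (SD, n = 5; log2 fold change 0.29, adjusted p = 0.0124). *Gm10073* fell by 1.91 on the log2 scale in thymic CD25 KO mice (adjusted p = 8.85e-05) from 2.94 to 0.772 CPM. Reads of these copies may be split between them.

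On the right, the nearest tested gene was *4933421O10Rik*, which starts 44105 bases after the start of *Rragd* and was not called in the thymus (log2 fold change 0.01, SE 0.114, adjusted p = 0.963) or in the spleen (0.06, SE 0.0975, adjusted p = 0.707). The other neighbor called in the thymus was *Orc3*, a subunit of the origin recognition complex, which rose by 0.35 (SE 0.0674, adjusted p = 0.00533) and had −0.02 in the spleen. The *Orc3* call was lost with the GC correction, which gave 0.02, and kept in 4 of 10 fits without a single mouse. *Gabrr2*, a GABA receptor subunit 79962 bases after the start of *Rragd*, had 0.47 in the thymus (adjusted p = 0.0175) and −0.73 in the spleen (adjusted p = 0.00385). *Ankrd6*, which starts at −179002 bases, was lower in the thymus without overlap but not called (−0.68, SE 0.163, adjusted p = 0.0134). In the spleen it had −0.01 (adjusted p = 0.951). *Gabrr2* and *Ankrd6* were named after their values were seen. The 32 neighbors tested in the thymus had a median log2 fold change of 0.25.

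The splenic calls near *Rragd* included *Bach2*, a transcriptional repressor of effector differentiation, which fell by 0.65 (SE 0.0832, adjusted p = 5.72e-05) and had −0.03 in the thymus. Its intronic and antisense transcripts *Bach2it1* and *Bach2os* were lower by −0.94 and −0.79, and the ribosome assembly factor *Mdn1* by −0.43. *Casp8ap2* rose by 0.28, *Zfp292* by 0.28 and *Spaca1* by 1.51. These splenic genes were named after their values were seen. Reads of *Bach2* and its overlapping transcripts cannot be separated without strand.

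**Figure D4:**
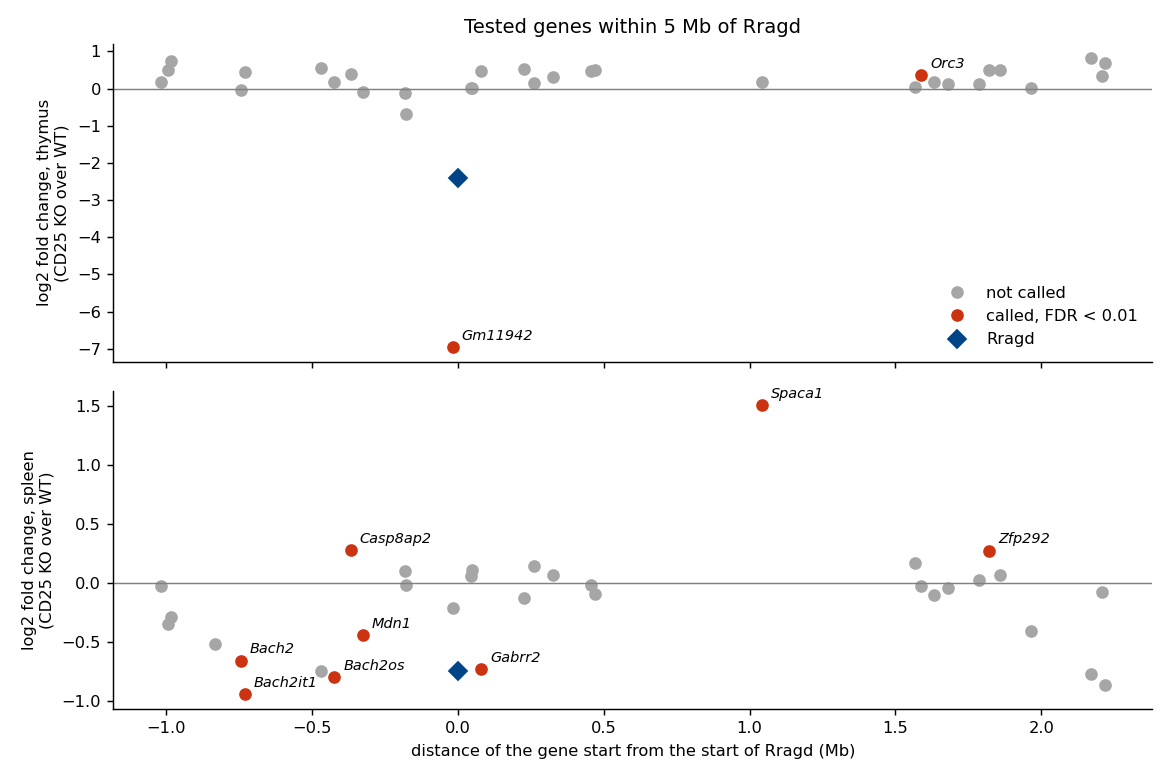
Log2 fold change of CD25 KO over WT for tested genes within 5 Mb of the start of *Rragd*, against the distance in Mb, for thymus (top) and spleen (bottom); red points are called at FDR < 0.01 and the diamond is *Rragd*. *Gm11942* at −6.97 is the far outlying thymic point, beside a *Rragd* value of −2.40.

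Genes close to absent in a single genotype of a tissue were counted as a wider view. In the thymus, 16 genes had 3 or fewer counts in every CD25 KO library and at least 0.5 CPM on average in WT, spread over 12 chromosomes, and 4 genes showed the opposite. In the spleen there were 2 and 1. The 16 thymic genes included the effector Treg gene *Klrg1* (18.3 CPM in splenic WT), the immunoglobulin gene *Igha* and *Gm21742* on chromosome Y. They also included *Gm26825*, at 101 CPM in thymic WT but 0.197 and 0.121 CPM in splenic WT and CD25 KO mice. These genes were named after their values were seen. The parts of line, sex, Treg state and cell content in this count were not tested. A single one of the thymic genes lay on chromosome 4, *Gm24245*, at 0.551 CPM ± 1.13 in WT (SD, n = 5) and 106 Mb from *Rragd*. Of 26 thymic genes called with at least an 8-fold change, on 14 chromosomes, *Gm11942* was the 1 on chromosome 4. In the spleen 11 genes passed that size and none was on chromosome 4. The limit of 8-fold was chosen after the values had been seen.

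The other genes of the pathway were taken as 5 lists with 110 genes, which hold none of the 10 members. In the thymus 108 were tested and 9 called (8.33%, beside 6.16% of all genes), 5 lower and 4 higher, where 2.99% and 3.17% of all genes were called in these directions. In the spleen 104 were tested and 16 called (15.4%, beside 9.45% of all genes), 9 lower and 7 higher, where the shares over all genes were 3.55% and 5.9%. These genes had a median log2 fold change of −0.06 (thymus) and 0.00041 (spleen). The counts of single lists below stand beside the same shares over all genes. Of the 9 thymic calls, *Trib3* was the 1 that was kept with each mouse left out in turn, and 6 were lost with the GC correction. Of the 16 splenic calls, 12 were kept with each mouse left out, 2 were lost with the GC correction and 8 in a fit of all 18 samples.

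Among 29 genes of amino acid sensing and Rag control, 1 fell and 2 rose in the thymus, and 1 fell in the spleen. *Sesn3*, a sestrin that restrains mTORC1 through GATOR2, rose in the thymus by 0.27 (SE 0.0506, adjusted p = 0.00497), and the S-adenosylmethionine sensor *Bmt2* by 0.51 (SE 0.108, adjusted p = 0.00877). The *Bmt2* call was lost whichever single mouse was left out, and with the GC correction, which gave 0.17 (adjusted p = 0.0836). *Castor2*, of the arginine sensor family, fell there by 0.31 (SE 0.0572, adjusted p = 0.00488). The *Sesn3* and *Castor2* calls were kept in 5 and 4 of 10 fits without a single mouse. Both were lost with the GC correction. In the spleen *Sesn1*, another sestrin, fell from 95.9 to 64.2 CPM, a log2 fold change of −0.59 (SE 0.0575, adjusted p = 4.58e-06). *Sesn1* in the thymus had −0.05 (SE 0.0761).

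Of 8 further subunits and assembly factors of the complexes, *Prr5l*, which binds mTORC2, rose in the thymus by 0.63 (SE 0.135, adjusted p = 0.00891). That call was kept in 2 of 10 fits without a single mouse. *Telo2*, which helps to assemble mTOR, fell in the spleen by 0.31 (SE 0.0593, adjusted p = 0.00192), and its thymic value of −0.34 had an adjusted p of 0.0101. No other gene of this list was called.

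Of 27 genes of growth factor and energy input, 1 fell in the thymus. It was *Trib3*, a stress-induced pseudokinase that binds Akt, at a mean of 2.52 CPM against 0.775 CPM after CD25 loss, or a log2 fold change of −1.68 (SE 0.219, adjusted p = 0.000942). In the spleen 4 fell and 2 rose. The PI3K inhibitor *Pik3ip1* fell by 0.37 (adjusted p = 0.000820), the AMPK subunit *Prkag2* by 0.34 (adjusted p = 0.00105), the PI3K regulatory subunit *Pik3r1* by 0.33 (adjusted p = 0.000511) and the catalytic subunit *Pik3cd* by 0.26 (adjusted p = 0.00233). The Akt phosphatase *Phlpp1* rose by 0.33 (adjusted p = 0.00116) and the catalytic subunit *Pik3ca* by 0.24 (adjusted p = 0.00533).

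Of 19 substrates and outputs of mTORC1, 2 fell in the thymus, and in the spleen 3 fell and 1 rose. *Larp1*, which represses translation of ribosomal protein mRNAs, fell in both, by 0.42 (SE 0.0894, adjusted p = 0.00850) and by 0.33 (SE 0.0497, adjusted p = 0.000290). Its thymic call was kept in 3 of 10 fits without a single mouse and lost with the GC correction. *Tfe3*, a lysosomal transcription factor held in the cytoplasm by mTORC1 and the Rag GTPases, fell in the thymus by 0.46 (SE 0.0765, adjusted p = 0.00288) and had 0.15 in the spleen (adjusted p = 0.175). Splenic *Eef2k*, the kinase of elongation factor 2, fell by 0.80 (SE 0.108, adjusted p = 9.54e-05) and *Rps6* by 0.29 (adjusted p = 0.00665). *Ulk1*, the kinase that starts autophagy, rose there by 0.23 (adjusted p = 0.00649).

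The last list held 27 lysosomal genes known as targets of the MiT/TFE factors. In the spleen 4 rose and none fell, where 5.9% of all genes were called higher and 3.55% lower. Of the 27, 20 were above 0, with a median of 0.13 beside −0.0065 over all tested genes. *Gpnmb* rose by 1.07 from 1.05 CPM (adjusted p = 0.00131), *Lamp2* by 0.66 (adjusted p = 9.40e-05), the protease *Ctsb* by 0.47 (adjusted p = 0.000105) and *Ctsa* by 0.32 (adjusted p = 0.000296). *Lyz2*, a myeloid gene, also rose in these libraries, from 6.10 to 12.6 CPM (adjusted p = 0.00132, edgeR). It was the 1 called of 5 tested myeloid markers, of which 3 were below 0 and 2 above, with a median of −0.23. The part of myeloid cells in the lysosomal values was not tested. In the thymus 20 of 27 were below 0, with *Lamp1* lower by 0.28 (adjusted p = 0.00461) and *Lamp2* higher by 0.31 (adjusted p = 0.00756), a direction that turned to −0.03 with the GC correction. The *Lamp1* call was kept in 4 of 10 fits without a single mouse and lost with the GC correction. *Pik3cd* and *Ctsa* were named after their values were seen.

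**Figure D5:**
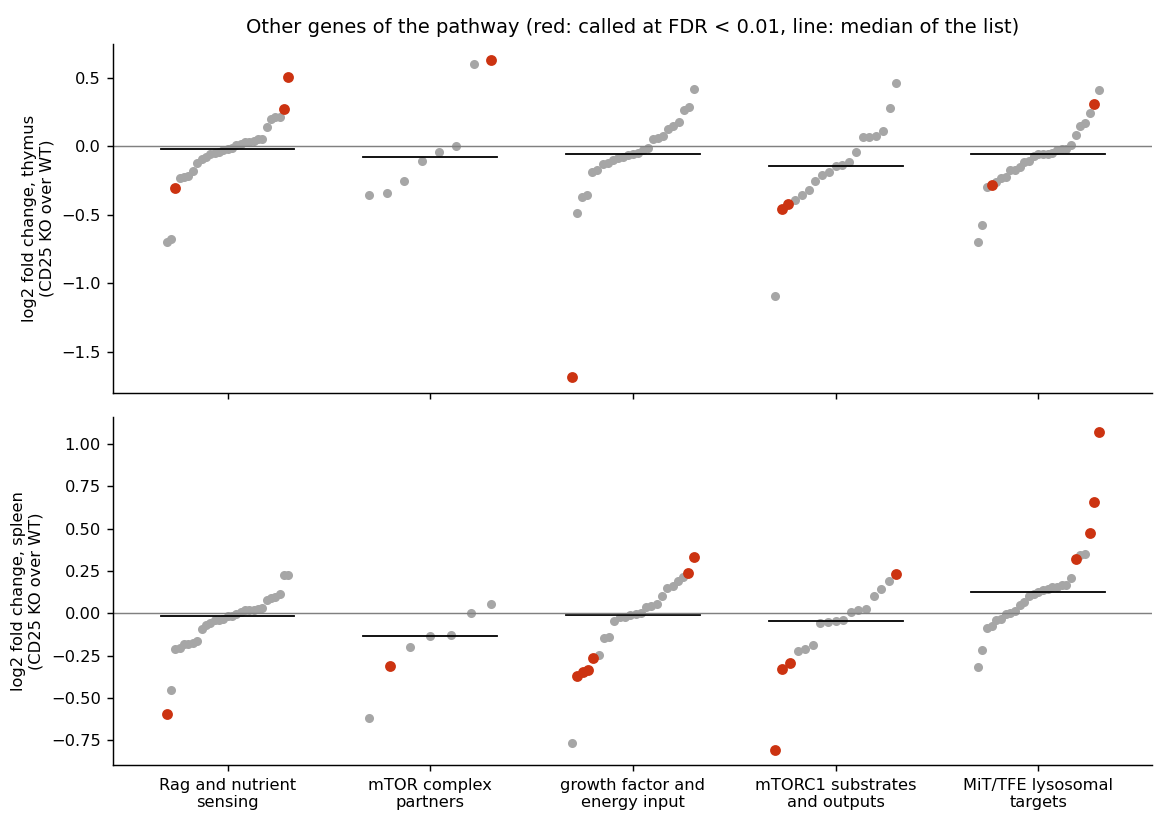
Log2 fold change of CD25 KO over WT for each tested gene of the 5 pathway lists, thymus above and spleen below; red points are called at FDR < 0.01 and the line is the median of the list. The splenic lysosomal list has its median at 0.13 and 4 called genes of 27, all above 0, where 5.9% of all splenic genes were called higher.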

How the data were processed

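RNA-seq covered 18 libraries of sorted Tregs, each from 1 mouse as the study describes them. The authors aligned reads to GRCm38 (mm10) with STAR 2.5.0b and deposited counts per gene made with featureCounts 1.5.0, without normalization. Splenic mice are numbered in the order of their sample records. The settings for strand and for reads with several matches are not given in the sources used here. The analysis started from these deposited counts. Symbols, positions, exonic length and GC content came from GENCODE M21, a later annotation than that used for counting, and 50376 of 50600 identifiers matched. The members and lists were chosen with earlier results of these data known.

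In R 4.3.3, genes were kept by filterByExpr, library sizes were adjusted with TMM factors, and the genotypes of a tissue were compared with the quasi-likelihood test of edgeR 4.0.16, with p-values adjusted after Benjamini and Hochberg over all genes tested. Genes with FDR < 0.01 are termed called. The difference between tissues was fitted over all 18 samples in 4 groups. CPM shown were TMM-scaled over all 18 samples, and log2 CPM used a prior count of 2. Standard errors of fold changes came from the F statistic of the test, and 95% intervals are normal intervals from these errors. Promoter sequences are RefSeq's for GRCm38.p6, and a gene name matched all 10 members. Protein sequences were not used here.

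Named genes were all members, up to 3 called genes per direction, tissue and list with the largest change, every neighbor called in the thymus and the nearest tested gene on each side, genes of chromosome 4 near absent in 1 thymic genotype, the 5 genes most correlated with *Rragd*, and *Il2ra*. Others are marked in the text.

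Alternatives were RLE and upper-quartile scaling, DESeq2 1.42.0, no low-count filter, a minimum of 10 counts in each library, a joint fit of all 18 libraries, GC correction, the mouse number as a block in the thymus, leaving out mice, and FDR < 0.05. Libraries held 17239774 to 32639570 counts, where 3 counts correspond to at most 0.162 CPM. Reads carry no molecular identifiers, so counting error is not the whole error. On simulated counts with 200 changed genes and no GC trend, edgeR called 70% of them and 2 others of 16806 genes in the thymic design, and 79.5% and 4 others of 17311 in the splenic design. With a GC trend simulated in the KO libraries, edgeR without GC correction called 184 unchanged genes in the thymic and 1571 in the splenic design. With the GC correction these false calls were 1 and 2. The strength of that trend was set and not taken from the data.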

Additional observations from a re-analysis of the deposited data

Results flagged for a closer look

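A single mouse stood apart from its group in 4 of the 40 groups of member values, by the gap to its nearest neighbor against the range of the group, where chance marks about 1 in 20 groups. *Rragd* in thymic CD25 KO mouse 2 was 4.51 CPM, against 2.94 to 3.09 CPM in the other KO mice, and that mouse also had the highest *Il2ra* of its group. KO mouse 4, next in *Il2ra* at 236 CPM, had 3.09 CPM of *Rragd*. *Mtor* in thymic WT mouse 2 was 122 CPM, against 107 to 111 CPM in the other WT mice. In thymic CD25 KO mouse 5, *Mtor* was 91.2 CPM, against 106 to 110 CPM in the others, and *Rictor* was 322 CPM, against 229 to 256 CPM.

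The effect of CD25 loss differed between spleen and thymus in some of the 33 genes examined, as splenic minus thymic log2 fold change. For *Rragd* the difference was 1.67 (SE 0.182), which includes the thymic contrast that chose it and is a description. Among pathway genes it was −0.52 for *Sesn1* (SE 0.101), 0.62 for *Tfe3* (SE 0.110), 0.38 for *Ulk1* (SE 0.0874), 1.79 for *Gpnmb* (SE 0.354) and 0.66 for *Ctsb* (SE 0.108). These pathway genes were named for a call in 1 tissue. The difference contains that contrast, so their values are a description too. For the pseudogene *Gm11942* it was 6.78 (SE 0.583, adjusted p = 3.81e-07). Tissue, age, mouse model, line and the date in the column names cannot be told apart in these differences.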

How the results depend on the processing

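Splenic *Rragd* was called lower under all 15 alternatives, from −0.83 to −0.66, and its thymic value, given as a description, ranged from −2.54 to −2.35 over 20. Some uncalled members changed sign. In the thymus, *Mtor* ranged from −0.10 to 0.02, *Rptor* from −0.12 to 0.05, *Rheb* from −0.08 to 0.03 and *Tsc1* from −0.06 to 0.05. In the spleen, *Rheb* had −0.0272 with upper-quartile scaling, −0.0236 with GC correction and −0.0403 to 0.0347 with single mice left out, *Rictor* had −0.043 to 0.0094 with single mice left out, and *Tsc2* had 0.0023 with GC correction. Thymic *Lamp2* had −0.0263 with GC correction and −0.0214 with GC correction and the replicate block. The causes were not tested.

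Thymic counts depended more on the processing. For members (3 called), GC correction gave 1, with or without the block, and leaving out single mice 1 to 3. For pathway genes (9 called), DESeq2 gave 18, a fit of all 18 samples 22, GC correction 3, omission of KO mice 2 and 4 gave 16, FDR < 0.05 gave 28, and leaving out single mice 1 to 11. For other genes within 5 Mb of *Rragd* (2 called), DESeq2 gave 7, the minimum of 10 counts 1, a fit of all samples 6, omission of KO mice 2 and 4 gave 4, FDR < 0.05 gave 12, and leaving out single mice 1 to 2. In the spleen a fit of all samples gave 1 member (2 called), 8 pathway genes (16 called) and 5 neighbors (8 called). FDR < 0.05 gave 25 splenic pathway genes, and leaving out single mice 2 to 3 members, 12 to 17 pathway genes and 4 to 9 neighbors. The lowest neighbor counts, 4, 4 and 5, were without WT mouse 3, 4 and 2.

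Over all genes, thymic calls were 508 lower and 539 higher, against 1240 and 1493 with DESeq2, 1585 and 1296 in a fit of all samples, and 1232 and 776 without KO mice 2 and 4. Leaving out WT mouse 2, 3 or 5 or KO mouse 1 or 3 lowered the thymic sums most. They were 220 lower and 151 higher without KO mouse 3, and 183 and 197 without WT mouse 2. Splenic calls were 620 lower and 1031 higher, against 371 and 424 in a fit of all samples.

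Thymic mouse numbers did not pair the samples: same-numbered mice had correlations of deviations from −0.24 to 0.14, with 1 of 5 above 0.1. With the number as a block, thymic calls were 158 lower and 51 higher, with 1 pathway gene and 1 neighbor, and likewise 1 and 1 with GC correction added. *Rictor* had 0.41 under the block and was not called. No paired fit was made in the spleen, whose labels carry no shared number. The lowest *Rragd* libraries held 56 counts, the depth that limits the thymic KO values.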
